A study of Homo sapiens with 6 samples.

Results

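In all, 10 of 18417 measured genes, transcription factors of the lung mesenchyme, were followed in IMR90 cells with and without oncostatin M: TWIST1, TWIST2 and TCF21 of the basic helix-loop-helix (bHLH) family, the forkhead factor FOXF1, the T-box factors TBX2, TBX3, TBX4 and TBX5, and the homeobox factors PRRX1 and MEOX2. They were chosen by name, with earlier results of these data known, and each had 1 probe set annotated to its symbol alone. IMR90 is a human line of lung fibroblasts. Oncostatin M, a relative of interleukin-6, signals through the receptor subunits OSMR and IL6ST, JAK kinases and STAT3. The groups were 3 samples of IMR90 given a single dose of recombinant human oncostatin M at 10 ng/mL, and 3 untreated control samples. Total RNA of each sample was hybridised to 1 gene-level Affymetrix array. The labels do not state how long the cells were treated. All samples are of 1 line. Nothing in the labels says that replicates came from different cultures, so the spread behind each p-value is that of these samples and may be technical.

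The mesoderm around the budding lung receives sonic hedgehog from the epithelium and answers through GLI factors, with FOXF1 as one of the genes that depend on this signal in mice. In mice Tbx4 and Tbx5 act in the lung mesenchyme upstream of Fgf10, which drives branching of the epithelium, and Tcf21 marks fibroblast precursors that carry lipid. Bulk RNA of a culture was measured, so fewer cells of a type and less RNA per cell cannot be told apart.

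Of the 10 factors, TWIST1 and FOXF1 rose after oncostatin M, none fell, and the other 8 did not pass an adjusted p of 0.05 in a linear model over all genes (limma, Benjamini-Hochberg). Over all genes, 1.72% were called higher and 1.70% lower, 3.42% in all. At an unadjusted p under 0.05, 3 factors were higher and 1 was lower, against 4.98% of all genes higher and 6.66% lower. The groups did not overlap for 4 factors (TWIST1, FOXF1 and TCF21 higher, TBX2 lower), against 18.0% of all genes. Since earlier results were known when the factors were chosen, these shares are no test of them. The median difference, oncostatin M minus control, was 0.051 over the 10 factors and 0.00057 over all genes on the log2 scale, with 6 factors above 0 and 4 below. Values below are log2 expression levels or differences of them, and SE is the standard error of a difference.

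**Figure D1:**
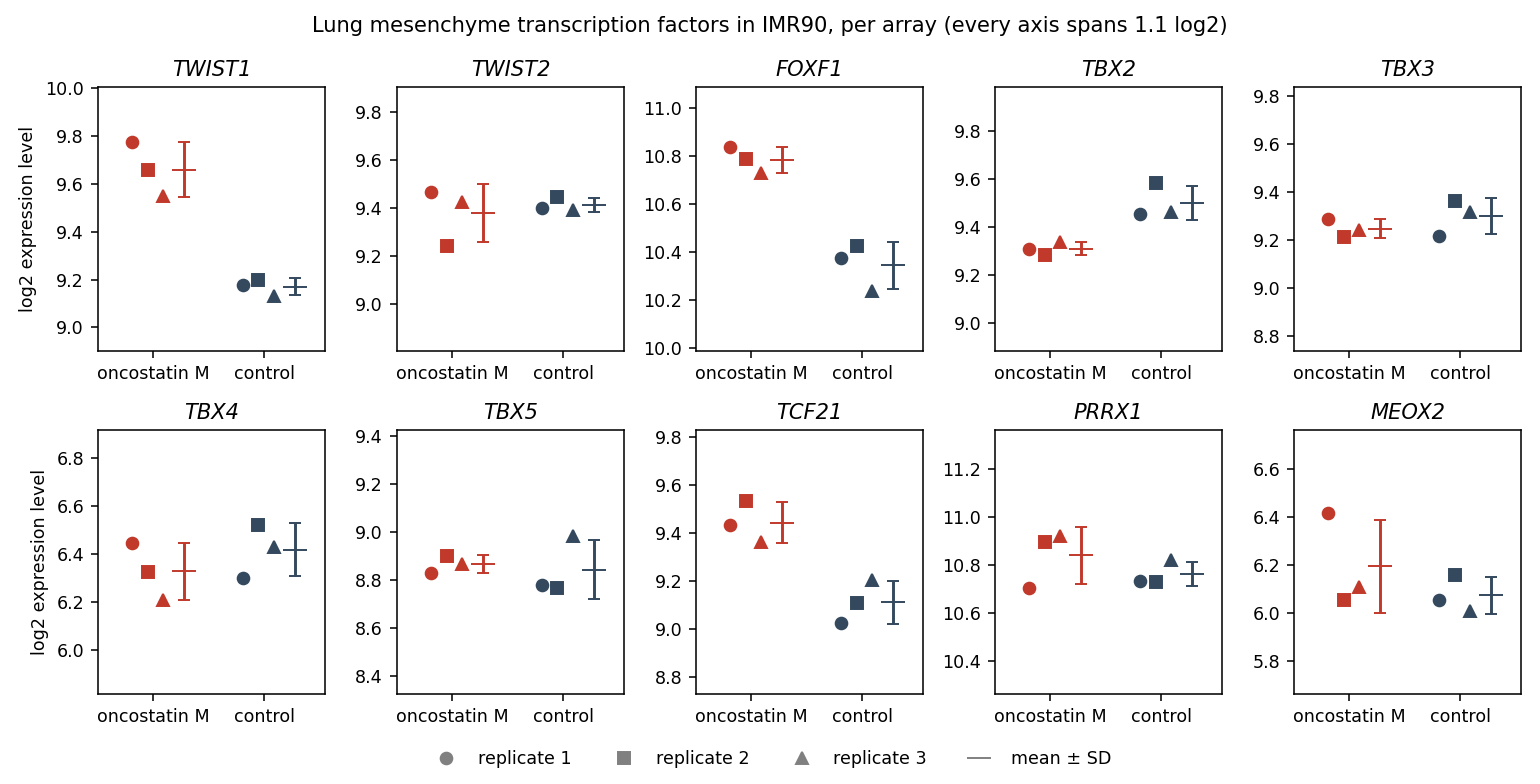
Log2 expression level (vertical axis, with the same span of 1.1 in every panel) of the 10 factors on each of 3 oncostatin M arrays (red) and 3 control arrays (dark), with mean ± SD beside the points. TWIST1, FOXF1 and TCF21 lie higher on every oncostatin M array than on any control array, TBX2 lies lower, and the groups overlap for the other 6.

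TWIST1 is a bHLH factor of mesenchymal cells, best known for its part in cranial mesoderm and in epithelial-mesenchymal transition. Its level was 9.77, 9.66 and 9.55 on oncostatin M arrays 1, 2 and 3, against 9.18, 9.20 and 9.13 on control arrays 1, 2 and 3. The lowest treated array thus stood 0.35 above the highest control array. The mean was 9.66 ± 0.11 after oncostatin M and 9.17 ± 0.036 in control (SD, n = 3 each). TWIST1 rose by 0.49 (SE 0.080, 95% interval 0.31 to 0.67), or 1.40-fold, with an adjusted p of 0.0136 (limma), and 270 of the 18417 genes had a larger rise. The call held without oncostatin M 1 (adjusted p = 0.0134) or oncostatin M 3 (0.0207) and was lost without oncostatin M 2 (0.0508), control 1 (0.0842), control 2 (0.0596) or control 3 (0.0692), while the difference stayed between 0.43 and 0.54 in these 6 limma fits.

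TWIST2, a bHLH factor closely related to TWIST1 and active in dermal and other mesenchyme, had overlapping groups. Its level was 9.47, 9.24 and 9.42 on oncostatin M arrays, against 9.40, 9.44 and 9.39 on control arrays. Oncostatin M 2 was lower than every control array, and oncostatin M 1 was higher than every one. The difference was -0.035 (95% interval -0.22 to 0.15, limma adjusted p = 0.971). The changes of TWIST1 and TWIST2 differed by 0.52, TWIST1 minus TWIST2, and an exact two-sided permutation test over the arrays gave p = 0.1 (0.15 adjusted over 3 pairs of related factors), which is the smallest p that 3 arrays against 3 allow. Probes of related genes can share targets, and this was not tested.

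FOXF1 is a forkhead factor needed for lung vessels and mesenchyme, and loss of a human copy is linked to alveolar capillary dysplasia. Its level was 10.84, 10.79 and 10.73 on oncostatin M arrays, against 10.38, 10.43 and 10.24 on control arrays. All treated arrays lay above all control arrays, with a gap of 0.30. The mean was 10.79 ± 0.055 after oncostatin M and 10.35 ± 0.098 in control (SD, n = 3 each). FOXF1 rose by 0.44 (SE 0.078, 95% interval 0.26 to 0.62), or 1.36-fold, with an adjusted p of 0.0206 (limma). The call held without oncostatin M 1 (0.0265) and was lost without any other single array, with adjusted p of 0.0514 without oncostatin M 3, 0.0531 without control 2, 0.0759 without oncostatin M 2, 0.0933 without control 3 and 0.0966 without control 1. The difference stayed between 0.38 and 0.48 in these limma fits.

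**Figure D2:**
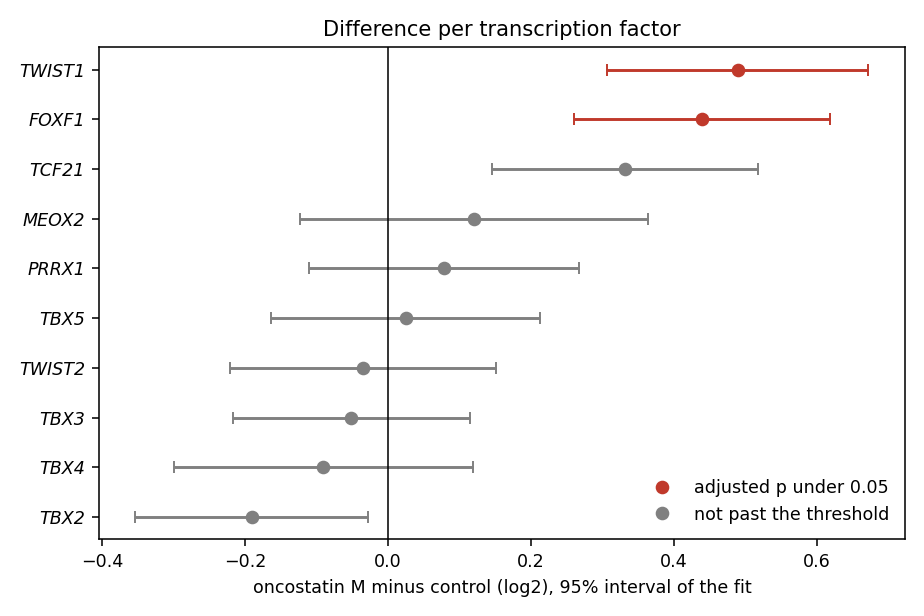
Difference in log2 level, oncostatin M minus control (horizontal axis), for each factor with the 95% interval of the limma fit, in red where the adjusted p is under 0.05. The intervals of TWIST1 (0.31 to 0.67) and FOXF1 (0.26 to 0.62) lie farthest above 0, and those of MEOX2, PRRX1, TBX5, TWIST2, TBX3 and TBX4 include 0.

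TCF21, a bHLH factor of the mesenchyme of lung, kidney and heart, came next in size. Its level was 9.43, 9.53 and 9.36 on oncostatin M arrays, against 9.02, 9.11 and 9.20 on control arrays. The groups did not overlap, with a gap of 0.16. The difference was 0.33 (SE 0.081, 95% interval 0.14 to 0.52) and did not pass (limma adjusted p = 0.0793). It passed with genes of low level left out (adjusted p = 0.0434), with quantile normalization (0.0407), with a variance trend (0.0350) and with array weights (0.0259), and in none of the fits without 1 array (0.0821 to 0.302).

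Start-site sequences are shown for TCF21 and for TWIST2, a pair of bHLH members of which TCF21 lay higher on every treated array and TWIST2 did not. Each runs from 250 bases before to 50 bases after the start of transcription, from RefSeq on GRCh38.p14, and capitals mark the E-box CANNTG, the motif that bHLH factors bind. TCF21 lies at chr6:133888863-133889162 on the + strand and TWIST2 at chr2:238847835-238848134 on the + strand.
TCF21: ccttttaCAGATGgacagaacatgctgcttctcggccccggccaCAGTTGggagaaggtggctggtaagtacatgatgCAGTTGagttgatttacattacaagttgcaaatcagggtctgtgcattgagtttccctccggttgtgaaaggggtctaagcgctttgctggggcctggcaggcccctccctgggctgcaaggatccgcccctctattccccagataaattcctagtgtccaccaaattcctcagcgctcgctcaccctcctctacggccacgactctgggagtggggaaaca
TWIST2: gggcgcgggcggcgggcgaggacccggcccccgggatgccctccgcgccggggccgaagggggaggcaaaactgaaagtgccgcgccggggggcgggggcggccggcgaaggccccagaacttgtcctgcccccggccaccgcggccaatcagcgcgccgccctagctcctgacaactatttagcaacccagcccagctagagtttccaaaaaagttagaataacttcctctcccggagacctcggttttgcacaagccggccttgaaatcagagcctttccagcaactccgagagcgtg

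Motifs were searched on both strands, here and below. The TCF21 window held 3 E-boxes, and the TWIST2 window held none. Of 35116 windows of this length in the RefSeq table, 68.7% held at least 1. The GC content was 54.7% for TCF21 and 66.7% for TWIST2, against a median of 58.7% over all windows. RefSeq windows were at hand for 6 of the 10 factors, 7 windows in all since TBX5 had a second start. None of the 7 held the palindrome TTCNNNGAA that STAT factors bind (7.66% of all windows), the T-box motif GGTGTGA (3.45%) or the forkhead motif GTAAACA (3.42%). The homeodomain motif TAATTA stood in 1 TBX5 window (4.84% of all windows). TATAAA stood in the MEOX2 window on the strand opposite to the gene (11.5% of all windows on either strand). E-boxes stood once each in the windows of MEOX2 and TBX4 and in 1 of TBX5, and in none of PRRX1. A match or its lack describes these letters only. TWIST1, FOXF1, TBX2 and TBX3 have no window shown.

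The T-box factors TBX2 and TBX3, repressors related to each other, had lower means than in control, and neither passed. TBX2 had 9.31, 9.28 and 9.34 on oncostatin M arrays, against 9.46, 9.58 and 9.46 on control arrays. Every treated array was lower than every control array, by a gap of 0.12. The difference was -0.19 (SE 0.071, 95% interval -0.35 to -0.028) and did not pass (limma adjusted p = 0.302). TBX3 had 9.29, 9.21 and 9.24 on oncostatin M arrays, against 9.22, 9.36 and 9.32 on control arrays. The groups of TBX3 overlapped, and the difference was -0.051 (95% interval -0.22 to 0.11, limma adjusted p = 0.937). The changes of TBX2 and TBX3 differed by -0.14 (exact permutation p = 0.1, adjusted 0.15).

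TBX5 and TBX4, the activators of lung bud mesenchyme in mice, had overlapping groups. TBX5 had 8.83, 8.90 and 8.87 on oncostatin M arrays, against 8.78, 8.77 and 8.99 on control arrays, where control 3 was the highest of all 6. The difference was 0.024 (95% interval -0.16 to 0.21, limma adjusted p = 0.978), and it was -0.0080 without control 1 and -0.014 without control 2. TBX4 had 6.44, 6.33 and 6.21 on oncostatin M arrays, against 6.30, 6.52 and 6.43 on control arrays. Its difference was -0.091 (95% interval -0.30 to 0.12, limma adjusted p = 0.883). TBX4 and TBX5 changed by amounts that differed by -0.12 (exact permutation p = 0.4, also 0.4 adjusted). TBX4 lay below the bound for dim genes given further on, so its part in this comparison may be background signal. In the RefSeq gene order TBX2 stands beside TBX4 on chromosome 17 with 1 non-coding gene (LINC02875) measured between them, and TBX5 stands beside TBX3 on chromosome 12.

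The homeobox factors did not pass either. PRRX1, a factor of limb, facial and fibroblast mesenchyme, had 10.70, 10.90 and 10.92 on oncostatin M arrays, against 10.74, 10.73 and 10.82 on control arrays. Oncostatin M 1 was the lowest of all 6 arrays, and the difference was 0.078 (95% interval -0.11 to 0.27, limma adjusted p = 0.892). MEOX2, a factor of mesoderm and vessels, had 6.42, 6.05 and 6.11 on oncostatin M arrays, against 6.06, 6.16 and 6.01 on control arrays. Its difference was 0.12 (95% interval -0.12 to 0.36, limma adjusted p = 0.847), and it was 0.0085 without oncostatin M 1, the array that was highest.

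Detection calls were not at hand, and a bound for dim genes was taken from 429 genes of olfactory receptors and hair keratin-associated proteins, which fibroblasts are not known to use. The 95th percentile of their mean levels, 6.68, served as this bound. TBX4 and MEOX2 lay below it, with 36 and 49 of the 429 genes above them, so no detection is claimed for either. The other 8 factors lay above it. Intervals of the 10 differences rested on SEs between 0.071 and 0.11, and the smallest difference called in any gene was 0.31.

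**Figure D3:**
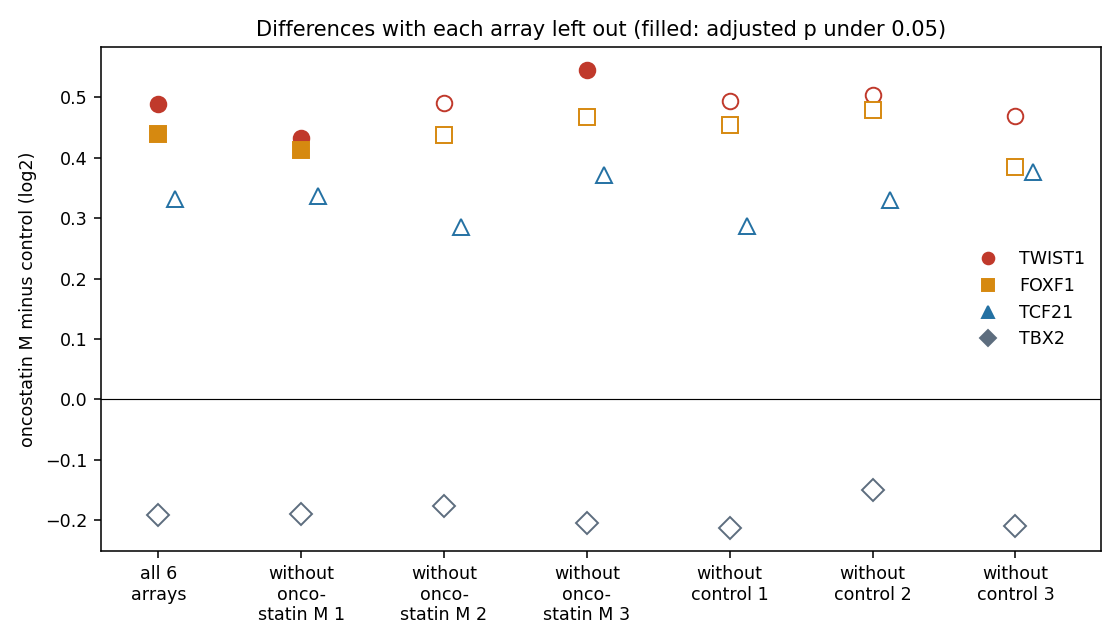
Difference in log2 level, oncostatin M minus control (vertical axis), of the 4 factors whose groups did not overlap, with all 6 arrays and with each array left out (horizontal axis). Filled symbols have an adjusted p under 0.05, which FOXF1 keeps in 1 and TWIST1 in 2 of the 6 fits with 1 array left out, while all 4 factors keep their sign.

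The genes whose 6 values, set to a control mean of 0, ran closest to those of TWIST1 were ABCC4, an exporter of cyclic nucleotides and prostaglandins, MFAP4, a protein of elastic fibres, and IFITM3, an interferon-induced membrane protein. Their root mean square distances were 0.037, 0.052 and 0.053 log2 units, and their own differences were 0.53, 0.49 and 0.47. For FOXF1 they were NFKBIZ, an inhibitor-type regulator of NF-kappaB, GJA1, the gap junction protein connexin 43, and SERPING1, the C1 inhibitor, at distances of 0.042, 0.051 and 0.052. Their differences were 0.39, 0.48 and 0.47, and NFKBIZ did not pass (limma adjusted p = 0.0526). The calls of the other 5 were lost in 1 to 4 of 6 fits without 1 array, with the highest adjusted p at 0.0581 for ABCC4, 0.167 for MFAP4, 0.0502 for GJA1 and 0.161 for SERPING1 without control 1, and 0.0600 for IFITM3 without control 2. These distances describe 6 arrays in 2 groups and say nothing of shared control.

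Around the 10 factors, 9 lists of related genes held 134 measured genes, of which 7 were higher and 7 lower (10.4%, against 3.42% of all genes). These lists were chosen with earlier results of these data known, so the shares are no test of them. Of 36 other mesenchymal and lung mesoderm transcription factors, 2 were higher and 1 lower (median 0.029). At an unadjusted p under 0.05 in limma, 3 were higher and 4 lower. The lower ones included the forkhead genes FOXL1 (-0.29, limma adjusted p = 0.0973) and FOXC2 (-0.28, 0.380), on chromosome 16 as is FOXF1. FOXF2, the forkhead relative of FOXF1, had 9.16, 9.05 and 9.06 on oncostatin M arrays, against 8.60, 8.84 and 8.58 on control arrays, and rose by 0.42 (limma adjusted p = 0.0484). MSC, the bHLH factor musculin, rose by 0.50, and FOXD1, a forkhead factor of kidney stroma and pericyte precursors, fell by 0.69 (limma adjusted p = 0.00244). The call of FOXD1 held without each array in turn. That of MSC held in 2 of these 6 limma fits, with its highest adjusted p of 0.188 when control 1 was left out, and that of FOXF2 in 1, with a highest of 0.222 for the same array.

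None of 13 other T-box factors passed in limma, and none had an unadjusted p under 0.05 (median 0.025), but 10 of the 13 lay below the bound of 6.68. Of 7 bHLH partners and inhibitors, 1 was lower and none higher, with 3 lower at an unadjusted p under 0.05 (median -0.15). TCF4, an E protein that pairs with TWIST and TCF21, had 9.65, 9.78 and 9.48 on oncostatin M arrays, against 10.29, 10.19 and 10.12 on control arrays. TCF4 fell by 0.57 (SE 0.095, limma adjusted p = 0.0155), a call lost in 2 of 6 fits without 1 array (up to 0.10 without control 1). ID3 and ID1, inhibitors of bHLH dimers, differed by -0.48 (limma adjusted p = 0.0541) and -0.31 (0.119). The E proteins TCF3 and TCF12 differed by -0.090 and 0.19 (limma adjusted p = 0.841 and 0.441). Of 6 epithelial-mesenchymal transition factors none passed in limma, with 1 higher and 1 lower at an unadjusted p under 0.05 (median 0.075). SNAI2 was the lower one, with a difference of -0.23 (limma adjusted p = 0.352), and ZEB2 the higher one, with 0.17 (0.411).

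Among 13 hedgehog genes, 1 was higher and 1 lower (median 0.051). PTCH1, the hedgehog receptor, had 8.91, 8.87 and 8.68 on oncostatin M arrays, against 8.26, 8.36 and 8.37 on control arrays. It rose by 0.49 (limma adjusted p = 0.0186), a call that held in 2 of 6 fits without 1 array (up to 0.114 without control 1). HHIP, which binds and restrains hedgehog ligands, had 5.71, 5.80 and 6.08 on oncostatin M arrays, against 6.71, 6.85 and 7.10 on control arrays. It fell by 1.02 (SE 0.13, limma adjusted p = 0.00407), and lay below the bound of 6.68 on every treated array, so the size is uncertain. GLI1, a target used to read out the pathway, differed by 0.17 at a level below the bound (limma adjusted p = 0.657), and GLI2 by -0.20 with groups that did not overlap (0.238). Whether hedgehog signalling changed was not tested.

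Of 18 signals of the lung mesenchyme, 2 were higher and 1 lower (median 0.055). WNT2, a ligand of early lung mesoderm, had 7.21, 7.26 and 6.79 on oncostatin M arrays, against 5.62, 5.91 and 5.84 on control arrays. It rose by 1.30 (SE 0.14, limma adjusted p = 0.00185), and its control levels lay below the bound, so the size is uncertain. BMP4, a growth factor of the distal lung, had 9.14, 9.35 and 8.83 on oncostatin M arrays, against 7.97, 8.11 and 7.77 on control arrays, and rose by 1.16 (limma adjusted p = 0.00377). WNT5A fell by 0.44 (limma adjusted p = 0.0335, lost in 5 of 6 fits, up to 0.152 without control 1). FGF10 differed by -0.026 at a level below the bound (limma adjusted p = 0.976). The calls of WNT2, BMP4 and HHIP held without each array in turn.

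HOX genes record position along the body, and those of paralog groups 1 to 5 are used in the lung. Of 10 measured there 2 were lower and none higher (median 0.031), with HOXB5 at -0.53 (limma adjusted p = 0.0332) and HOXB2 at -0.37 (0.0387). Both calls were lost in 4 or more of 6 fits without 1 array, up to 0.147 for HOXB5 and 0.144 for HOXB2, each without control 2. Of 17 genes of groups 6 to 13 none passed in limma, and none had an unadjusted p under 0.05 (median 7.6e-05), but 4 of the 17 lay above the bound of 6.68 and the others did not. A further 12 listed HOX genes, most of them of the HOXA cluster, were not analysed here.

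**Figure D4:**
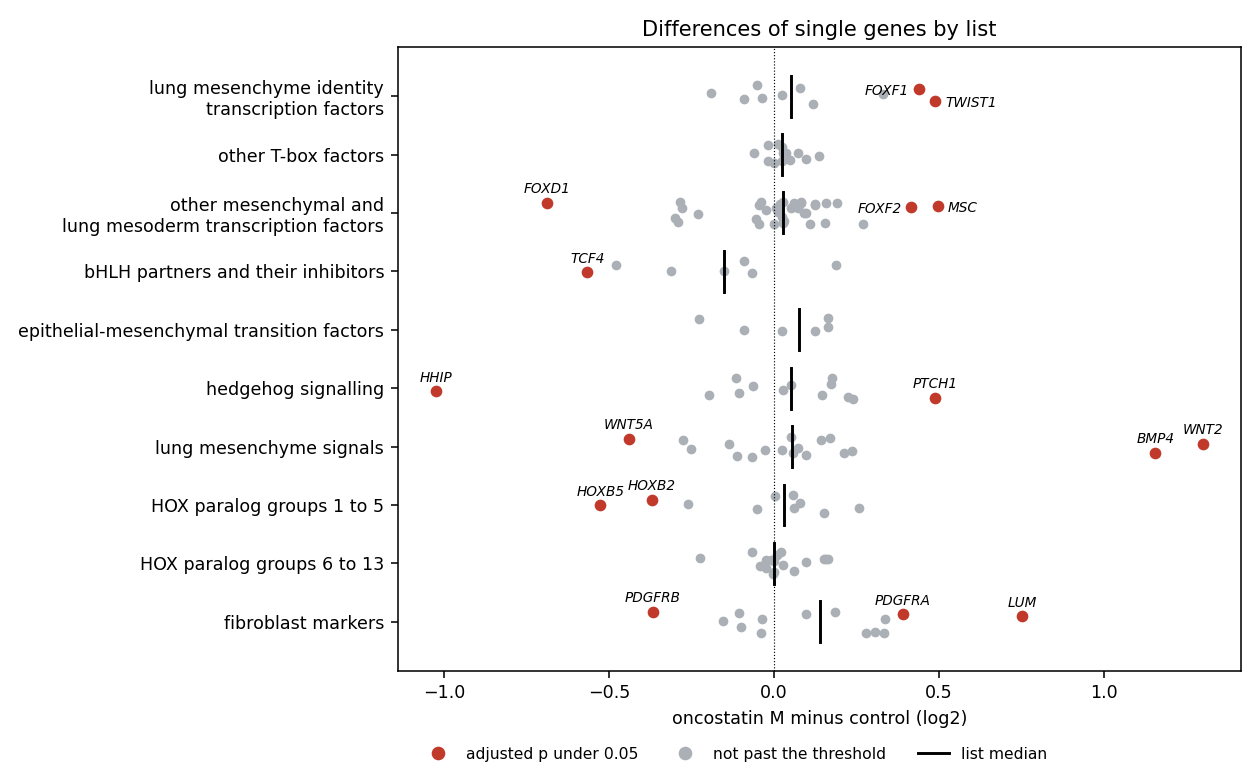
Difference in log2 level, oncostatin M minus control (horizontal axis), of every measured gene in the list of 10 factors and in 9 related lists (rows), in red with its name where the adjusted p is under 0.05, and a bar at each list median. WNT2 (1.30) and BMP4 (1.16) lie farthest above 0, and HHIP (-1.02) farthest below.

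All 14 fibroblast markers lay above the bound of 6.68 by their mean over all arrays. S100A4 did so narrowly, with 6.65 on control 1 and 6.61 on control 2. The proteoglycan gene LUM and the receptor gene PDGFRA rose by 0.75 and 0.39, and PDGFRB, the related receptor, fell by 0.37 (limma adjusted p = 0.0222, 0.0337 and 0.0253). These calls were lost in 3, 4 and 5 of 6 fits without 1 array, up to 0.109 without control 2, 0.157 without control 1 and 0.127 without control 3. Above the bound were 3 of 11 lung epithelial markers (KRT18, KRT8 and AGER), 2 of 8 endothelial (TEK and CLDN5), 1 of 6 leukocyte (CD68) and none of 5 mesothelial markers, while EPCAM, CDH1, NKX2-1, PECAM1, CDH5, PTPRC and WT1 lay below it. KRT18, the brightest epithelial marker, rose by 0.52. The log2 of the summed epithelial markers was 10.42 to 10.68 after oncostatin M and 10.21 to 10.38 in control. Such a sum weighs its brightest genes most. Of 10 smooth muscle and pericyte markers 9 lay above the bound, and 3 of the 10 were lower and none higher, against 1.70% of all genes lower. The 3 were CSPG4 (-0.67), RGS5 (-0.70) and CNN1 (-0.50), with limma adjusted p of 0.0206, 0.0143 and 0.0315. RGS5 lay below the bound on oncostatin M 1 (6.55) and oncostatin M 3 (6.59). At an unadjusted p under 0.05 in limma, 7 of the 10 were lower, against 6.66% of all genes. Sums of the 10 markers were 14.12 to 14.31 after oncostatin M and 14.41 to 14.54 in control. The brightest of them, ACTG2 and ACTA2, weigh most in these sums and did not pass (limma adjusted p = 0.275 and 0.257). The sums were 9.63 to 10.03 after oncostatin M and 9.45 to 9.67 in control for endothelial markers. TEK, the brightest of these, had means of 9.04 after oncostatin M and 8.57 in control, and did not pass (limma adjusted p = 0.182). For leukocyte markers the sums were 10.73 to 10.81 after oncostatin M and 10.64 to 10.87 in control. For mesothelial markers they were 8.13 to 8.46 after oncostatin M and 8.11 to 8.38 in control. Whether cell types changed was not tested, nor was the part of these shifts in the differences of TWIST1, FOXF1 and the other genes above.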

How the data were processed

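The authors deposited log2 values, 1 for each probe set of an array. Per the submitters' processing notes they come from RMA and Affymetrix Expression Console 1.1, with no settings named. RMA makes the arrays' distributions alike, so a change is relative to the other genes. A genome build is not stated. Array medians were 6.54 to 6.66 and correlations between arrays 0.989 to 0.997.

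Of 33297 probe sets, 19460 had exactly 1 gene symbol in the platform's gene table, 1754 several and 12083 none here. Each gene was read from its brightest probe set by mean over all arrays (18417 genes, no filter). Group was the only term of a limma 3.58.1 fit in R 4.3.3 (functions lmFit and eBayes), with two-sided p-values adjusted by Benjamini-Hochberg over all genes and a threshold of 0.05. Related pairs were compared by exact permutation. Figures used matplotlib 3.10.9. The fit was tested on simulated data, genes drawn independently around their measured means, with 200 of 18417 genes changed. Recovery was 50.4% at a log2 change of 0.5, 86.0% at 1 and 99.7% at 2, and 3.98% of calls were false. The number of arrays limits the precision.

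Members and lists were chosen with earlier results of these data known. Named are the 10 factors, up to 4 called genes per related list with the largest change, and the 3 genes nearest in pattern to each called factor. Other genes named were chosen after their values were seen. Alternatives covered normalization, probe set choice, a filter on dim genes, variance priors, array weights, a replicate block, the threshold and each array left out.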

Additional observations from a re-analysis of the deposited data

How the results depend on the processing

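Of the 10 factors, 8 kept the sign of their difference in every alternative that measured them (18, or 17 for TBX4 and MEOX2, which the filter on dim genes left out), and TBX5 and TWIST2 did not: without 1 array TBX5 ran from -0.014 to 0.095 and TWIST2 from -0.080 to 0.034. TWIST1 passed in 13 of 18 alternatives and FOXF1 in 11. Not all of these could have lost a call. A threshold of 0.10 could not, and other choices of probe set left both differences unchanged, since each factor had 1 probe set. Of 10 factors 2 passed, and 1 when all probe sets were fitted (FOXF1 at an adjusted p of 0.0602), 0 at a threshold of 0.01, and 0 to 2 without 1 array. Over all genes 630 passed, 316 higher and 314 lower. The counts were 361, 209 and 152 with all probe sets fitted, 1277, 667 and 610 with array weights (weight 0.226 for oncostatin M 1), 287, 175 and 112 at a threshold of 0.01, and without 1 array 261 to 732, 156 to 400 and 105 to 332. Of the related lists 14 genes passed, against 4 with all probe sets fitted, 5 with the replicate block, 4 at 0.01 and 4 to 14 without 1 array. Of the 14, 4 kept their call in all 6 fits without 1 array. Each of these 6 fits has equally few degrees of freedom, and the count over all genes was 261 without control 1 and 732 without oncostatin M 1. What sets this range was not tested.

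The labels do not say whether same-numbered arrays share more than a number. Their deviations from the group means correlated at 0.064, -0.46 and 0.51. Arrays of different numbers correlated at -0.60 to 0.54, so these values do not settle a pairing. With the replicate block 2 factors passed, TWIST1 at an adjusted p of 0.0396 and FOXF1 at 0.0478, and 478 genes in all.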

Other observations

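Genes that stand next to the factors in the RefSeq order were read after the values of the factors were seen. Of 17 distinct measured neighbours 2 passed in limma, against 3.42% of all genes, and whether the factors' neighbours differ from other genes was not tested. HDAC9, a histone deacetylase gene and the nearest measured neighbour of TWIST1 on one side, had a mean of 5.33 after oncostatin M and 6.21 in control, and fell by 0.88 (SE 0.11, adjusted p = 0.00346), while TWIST1 rose. Both means lie below the bound of 6.68 set by the olfactory receptor and keratin-associated protein genes, so the size of that fall is uncertain. Its call held without each array in turn. FERD3L, a bHLH gene on the other side of TWIST1, differed by 0.18 (adjusted p = 0.608), with both means below the bound. EYA4, a coactivator gene beside TCF21, had a mean of 8.50 after oncostatin M and 7.93 in control, and rose by 0.57 (SE 0.12, adjusted p = 0.0484), a call lost in 4 of 6 fits without 1 array (up to 0.219 without control 1). MTHFSD, the nearest measured gene on one side of FOXF1, differed by -0.0028 (adjusted p = 0.996), also with both means below the bound. No detection is claimed for FERD3L or MTHFSD.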
